A study of Mus musculus with 2 samples.

Results

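The genes described here make cholesterol and fatty acids in bone marrow-derived dendritic cells (BMDCs), antigen-presenting cells grown from mouse marrow. The list has 31 genes, listed by name for their place in these pathways. The rule uses no measured value, but the list was drawn up with earlier results of these data known. A gene was measured by the probes whose transcript accession belongs to it, and its value is that of its probe with the highest mean signal. Of the 31 genes, 30 had a probe, out of 23786 genes named on the array. No probe was matched to Acat2, the cytosolic thiolase at the head of the pathway, so it is not analysed here. Of the 30, 29 were well above background on both arrays by the scanner program's own call. The exception was Elovl6, above background on 1 array only.

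By its title the study deals with lactate as a brake on inflammation, and its arrays set BMDCs labelled deficient in the transcription factor EGR1 against BMDCs labelled wild type. One array was hybridised with RNA from C57BL/6J cells labelled EGR1-deficient and 1 with RNA from C57BL/6J cells labelled wild type (WT). Both cultures were started from femoral marrow, kept in medium with 10% serum and 10 ng/ml GM-CSF, a growth factor that drives myeloid differentiation, and taken on day 6 with no other agent named. How Egr1 was inactivated, whether animals were pooled and how old they were are not given in the sources used here. With 1 array per label there is no spread between cultures, no test and no p-value: a difference below compares 2 arrays and not 2 genotypes.

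Cells obtain cholesterol by uptake and by synthesis from acetyl-CoA. The synthesis runs through mevalonate and isoprenoid units to squalene, closes the ring as lanosterol and then trims lanosterol to cholesterol. Its genes are switched on by SREBP2, encoded by Srebf2, which the escort protein SCAP carries out of the endoplasmic reticulum when sterols are scarce and which INSIG proteins hold back when they are plentiful. SREBP1 drives the fatty acid branch in the same manner. In myeloid cells this system is known to respond to inflammatory signals and to supply membrane during growth.

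Several readings bear on the labels and on the cell type. Egr1 itself, read by 1 probe, gave a signal of 1212 on the EGR1-deficient-labelled array and 379.7 on the WT array, so it does not bear out the labels. The sources used here do not say where that probe lies relative to the inactivated part, and every direction below rests on the labels. Both samples are labelled male, yet Xist read 4559 and 3425. All 11 dendritic cell markers were above background on both arrays, with a median difference of −0.03 log2 units. Their signals, each divided by its array's 75th percentile, summed to 295 on the EGR1-deficient-labelled array and 308 on WT. Of 11 macrophage markers, 10 were above background on both arrays, all 10 lower on the EGR1-deficient-labelled array, with a median of −0.38. Sums here and below take in every listed gene, also those not above background, and for the 11 they were 151 and 199. Cd163 was above background on neither. Of 9 stromal markers, 3 were above background on both arrays, with a median of 0.99, and Lum and Pdgfra were above background on neither. The other 4, Col1a1, Col3a1, Dcn and Lepr, were above background on the EGR1-deficient-labelled array only. That array passed 59.8% of spots, down to a signal of 13.3, and WT 55.2%, down to 16.3. A call on 1 array only thus falls more readily on the EGR1-deficient-labelled array. Set against the higher of their own WT signal and that lowest WT signal, the folds of these genes were 1.31, 0.94, 1.83 and 1.94. Over all 9 the sums were 1.49 and 0.786. Of 8 adipocyte markers, 3 were above background on both arrays. Adipoq, Cfd and Cidec were not on either, and Plin1 and Plin4 were on the EGR1-deficient-labelled array only. Set against WT in the same way, the folds of Plin1 and Plin4 were 1.07 and 1.01. Over all 8 the sums were 3.49 and 3.40. Cell cycle genes had a median of −0.14 over 19 genes (sums over 20 genes 72.6 and 83.4), and granulocyte genes −0.08 over 12 (sums 364 and 345). The part these cells had in the results below was not tested. In bulk RNA, fewer cells of a type and less RNA per cell cannot be told apart.

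The synthesis genes as a whole read nearly the same on both arrays, and 2 of them stood apart. Fads2, the desaturase that starts the making of long polyunsaturated fatty acids, was 1.66-fold higher on the EGR1-deficient-labelled array, and its dimmer probe was higher there too, by 0.47 on the log2 scale. Tm7sf2, a sterol reductase of the late cholesterol pathway, was 1.77-fold lower there in its brighter probe but not in its other probe. Levels are log2 signals after division by the 75th percentile of an array's non-control spots, and differences are the EGR1-deficient-labelled array minus WT. Over the 29 genes the differences ran from −0.82 to 0.73 with a median of −0.09, and the median size regardless of sign was 0.22. The 13724 genes that passed the background call on both arrays had a median of −0.05 and a median size of 0.19.

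At a threshold of 1.5-fold, 1 of the 29 was higher and 1 was lower, where 3.51% of all genes were higher and 4.18% were lower. These counts are near the background. Among all 13724 genes the 482 higher and 573 lower calls became 288 and 989 when each array was scaled to its median. They became 649 and 239, of 12772 genes, with the scale of the authors' series table. Those rescalings moved the median of all genes by −0.11 and 0.12, and both calls among the members were the same under each. Other settings lost them: the lower call (Tm7sf2) was gone after normexp background correction, with a signal minimum of 100, with probes averaged and with the probe of second highest signal, and the higher call (Fads2) with that last setting. Of the 29 genes, 20 were below 0, against 57.4% of all genes. That count ran from 12 of 28 with the authors' series table, where 40.2% of all genes were below 0, to 23 of 29 with scaling to the array median, where 71.6% were. A sign alone therefore says little for a gene near 0. The histogram of all genes with the members set under it shows where they fell.

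**Figure D1:**
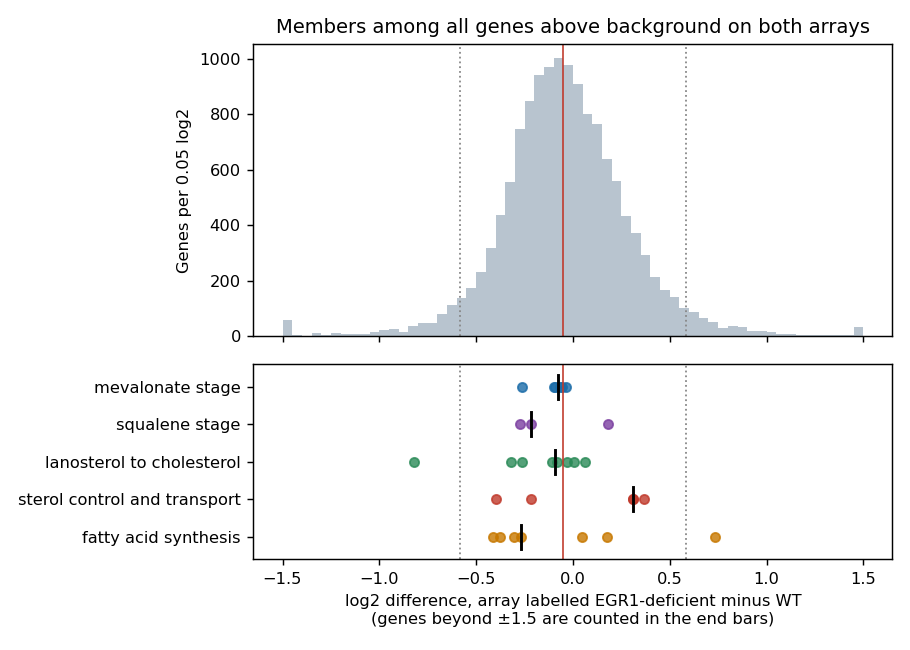
Top, number of genes per 0.05 log2 units of difference (EGR1-deficient-labelled array minus WT) over 13724 genes. Bottom, the 29 members by role, with each role's median as a black bar, the median of all genes (−0.05) as a red line and 1.5-fold as dotted lines; Fads2 at 0.73 and Tm7sf2 at −0.82 are the members beyond the dotted lines.

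The error attached to a single difference is technical. The scanner program gives each spot an error, which for bright spots came to about 0.20 log2 units in a difference. It is given below after ± as 1 SD, for 1 spot per array. It is wider than the spread seen between repeated spots of 1 probe, whose differences had a median SD of 0.07 over 269 probes. Different probes of 1 gene disagreed more: over 3571 genes with 2 probes the median SD was 0.17. It was 0.22 where the dimmer probe had a mean signal under 100 and 0.12 where both were at 100 or more. Of the 30 members, 3 lay further from 0 than 2 scanner errors, namely Fads2, Tm7sf2 and Fasn, the last only just (2.01 errors). The share of all genes beyond that limit was not computed, so the count has nothing to be set against. None of these errors contains the spread between cultures.

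**Figure D2:**
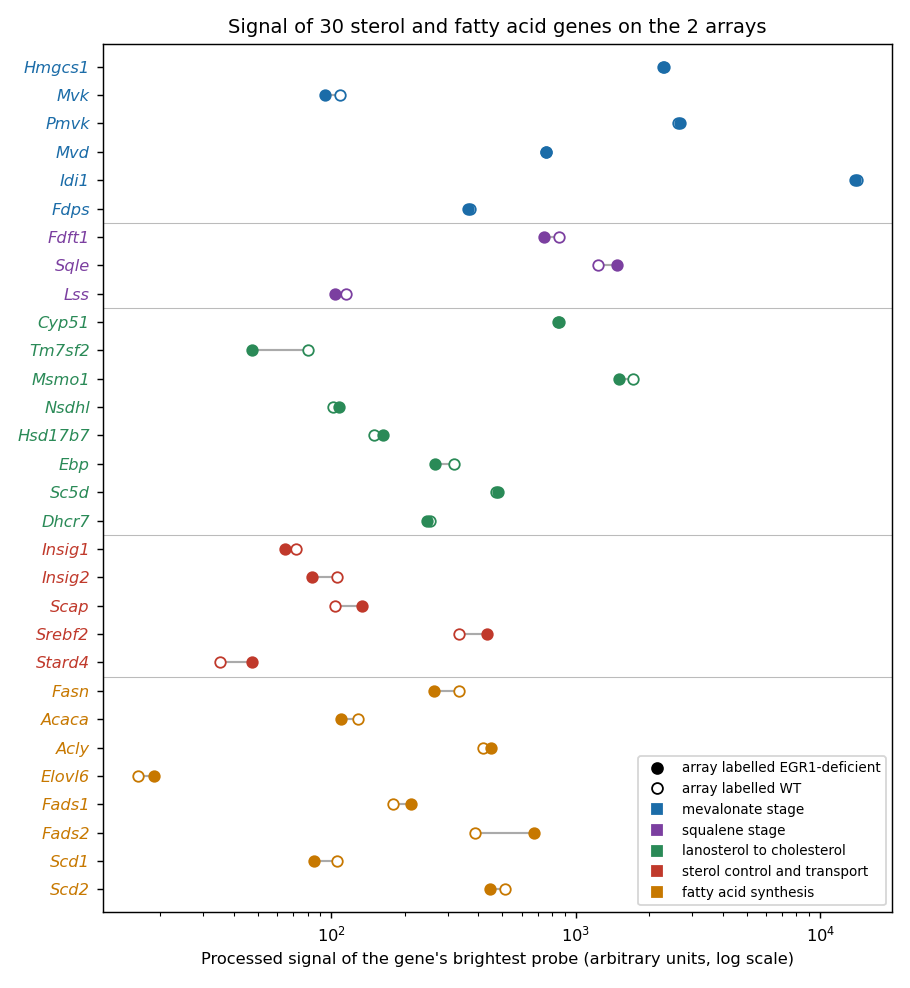
Processed signal of each gene's brightest probe (arbitrary units, log axis) on the EGR1-deficient-labelled array (filled) and on WT (open), 1 array each, in pathway order. Signals of different genes come from different probes and are not comparable with each other; the widest gaps within a gene are those of Fads2 (673 against 386) and Tm7sf2 (47.5 against 80.2).

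SREBP binds promoters together with the factor NF-Y, so the sequence before the gene start was read for 24 members that RefSeq's promoter table for GRCm38.p6 holds (250 bases before to 50 after the start). Fdps, Fdft1, Sqle, Stard4, Fads1, Scd1 and Scd2 are not among them. Both strands were searched. The NF-Y box CCAAT was in the promoter of 19 of the 24 members (79.2%), against 41.1% of 27025 genes in the table. The core TCACNCCAC of the sterol regulatory element was in 1, Hmgcs1 (1.44% of all genes), and the EGR1 site GCGNGGGCG in 3, Dhcr7, Insig1 and Scap (6.27% of all genes). A match is a description of these letters and not a bound site. Only exact letters were counted, so a missing match does not show that a promoter lacks such a site. The promoters of 4 members are shown, in lower case with every match to any of the 3 motifs in capitals on either strand: Hmgcs1 for the sterol element, Insig1 and Srebf2 as regulators that lay on opposite sides of 0, and Fads2 as the highest member. They lie at chr13:119690101-119690400 (plus strand), chr5:28071162-28071461 (plus), chr15:82147019-82147318 (plus) and chr19:10101454-10101753 (minus), each written 5′ to 3′ along its gene.
Hmgcs1: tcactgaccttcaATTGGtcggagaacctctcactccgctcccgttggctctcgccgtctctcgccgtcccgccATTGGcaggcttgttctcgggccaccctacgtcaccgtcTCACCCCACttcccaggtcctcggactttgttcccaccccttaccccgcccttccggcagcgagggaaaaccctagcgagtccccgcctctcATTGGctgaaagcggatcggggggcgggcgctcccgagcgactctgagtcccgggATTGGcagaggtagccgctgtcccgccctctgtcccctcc
Insig1: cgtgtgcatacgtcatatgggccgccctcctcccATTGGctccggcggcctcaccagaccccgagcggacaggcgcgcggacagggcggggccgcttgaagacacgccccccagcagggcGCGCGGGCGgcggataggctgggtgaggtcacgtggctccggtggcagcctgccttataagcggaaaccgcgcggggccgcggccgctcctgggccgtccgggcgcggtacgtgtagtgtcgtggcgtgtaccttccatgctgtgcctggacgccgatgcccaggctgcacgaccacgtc
Srebf2: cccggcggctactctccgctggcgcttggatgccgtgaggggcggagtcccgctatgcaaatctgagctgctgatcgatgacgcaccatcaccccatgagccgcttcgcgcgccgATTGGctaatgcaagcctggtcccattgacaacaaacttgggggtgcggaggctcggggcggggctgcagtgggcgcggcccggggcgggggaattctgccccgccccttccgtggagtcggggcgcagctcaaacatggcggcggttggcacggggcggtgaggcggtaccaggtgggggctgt
Fads2: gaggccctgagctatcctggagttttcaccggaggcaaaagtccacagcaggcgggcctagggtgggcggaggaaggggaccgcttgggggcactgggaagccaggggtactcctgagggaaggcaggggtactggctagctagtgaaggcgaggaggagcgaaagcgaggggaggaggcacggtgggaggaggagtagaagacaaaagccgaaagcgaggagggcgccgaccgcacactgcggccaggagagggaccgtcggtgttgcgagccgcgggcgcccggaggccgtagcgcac
The Hmgcs1 promoter holds the sterol element core, starting at position −137 from the gene start, and 4 NF-Y boxes on the minus strand. Insig1 holds 1 NF-Y box at −216 and 1 EGR1 site at −130, and Srebf2 1 NF-Y box at −135. The Fads2 window holds no match. The 3 members with the EGR1 letters differed by −0.11 (Dhcr7), −0.22 (Insig1) and 0.31 (Scap), and thus did not share a sign. The 19 members with an NF-Y box had a median difference of −0.09. The 3 measured members without one, Scap, Fads2 and Acaca, had a median of 0.31, and 3 genes are too few for a comparison.

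The mevalonate stage, which builds isoprenoid units from acetyl-CoA, read almost alike on both arrays. All 6 measured genes were slightly below 0, with a median of −0.08, and none reached 1.5-fold. The median was 0.016 after quantile normalization and 0.038 with the authors' series table. Hmgcs1, which makes HMG-CoA, read 2299 on the EGR1-deficient-labelled array and 2284 on WT (−0.06 ± 0.20). Idi1, the isopentenyl diphosphate isomerase, read 13851 and 14084 (−0.09 ± 0.20), and Fdps, the farnesyl diphosphate synthase, read 362 and 369.9 (−0.10 ± 0.20). Mvd, the mevalonate diphosphate decarboxylase, read 758 and 757 (−0.06 ± 0.20). Each of these lay within 1 scanner error of 0, and each changed sign under at least 1 alternative setting.

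The kinases of this stage were the highest and the lowest of the 6. Pmvk, the phosphomevalonate kinase, read 2673 on the EGR1-deficient-labelled array and 2613 on WT (−0.03 ± 0.20), and its other probe differed by 0.07. Mvk, the mevalonate kinase, read 94.5 and 108 (−0.26 ± 0.21). Its dimmer probe went the other way, at 27.3 and 19.1 (0.45 ± 0.38). The direction of Mvk is therefore not settled by its own probes, whereas those of Pmvk both lay within 0.07 of 0.

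At the squalene stage, where the pathway commits to sterols, 1 gene was above 0 and 2 were below, with a median of −0.22 that turned to 0.15 with the probe of second highest signal. Sqle, the squalene epoxidase, a rate-limiting oxygenase, read 1469 on the EGR1-deficient-labelled array and 1238 on WT (0.18 ± 0.20). It has 1 probe, and it ran from 0.07 to 0.30 over the 5 alternatives of scaling, normalization or background that could move it. Fdft1, the squalene synthase, read 744 and 858 (−0.27 ± 0.20), but 541 and 467 in its other probe, a difference of 0.15. Lss, the lanosterol synthase, read 103 and 115 (−0.22 ± 0.21), with another probe at −0.08 and its dimmest probe not above background. None of the 3 reached 1.5-fold or 2 scanner errors.

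Of the 8 genes that turn lanosterol into cholesterol, 2 were above 0 and 6 below, with a median of −0.10. Tm7sf2 was the lowest of all members, at 47.5 on the EGR1-deficient-labelled array and 80.2 on WT (−0.82 ± 0.23). Of all genes, 221 (1.61%) lay as low or lower. Its other probe read 25.97 on the EGR1-deficient-labelled array and 25.94 on WT (−0.06 ± 0.31), so the probes lay 0.76 log2 units apart. Spots within 5 rows and columns of the brighter probe had a median difference of −0.15, over 59 spots, and those around the other 0.03, over 62. Both Tm7sf2 probes are dim, in a range where single genes scatter more: among genes with a mean signal under 100, 16.5% were 1.5-fold apart in either direction, against 3.10% of brighter genes. Lbr, the lamin B receptor, whose product has the same sterol reductase activity, read 1234 and 1250 (−0.08 ± 0.20).

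The other 7 late genes lay closer to 0. Ebp, the sterol isomerase, read 265 on the EGR1-deficient-labelled array and 316 on WT (−0.32 ± 0.21), with its other probe at −0.15. Msmo1, the methylsterol monooxygenase, read 1497 and 1717 (−0.26 ± 0.20), with its other probe at −0.02. Both were below 0 in each probe and under each alternative of scaling, normalization or background. Cyp51, which removes a methyl group from lanosterol, read 845 and 855 (−0.08 ± 0.20), and Dhcr7, which catalyses the last reduction to cholesterol, 247 and 254 (−0.11 ± 0.21). Sc5d, a sterol desaturase, read 481 and 470 (−0.03 ± 0.20), and Nsdhl, a sterol dehydrogenase, 107 and 102 (0.00 ± 0.22). Hsd17b7, the ketosteroid reductase of the pathway, was the highest of the stage at 163 and 149 (0.06 ± 0.21), with its other probe at 0.25.

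**Figure D3:**
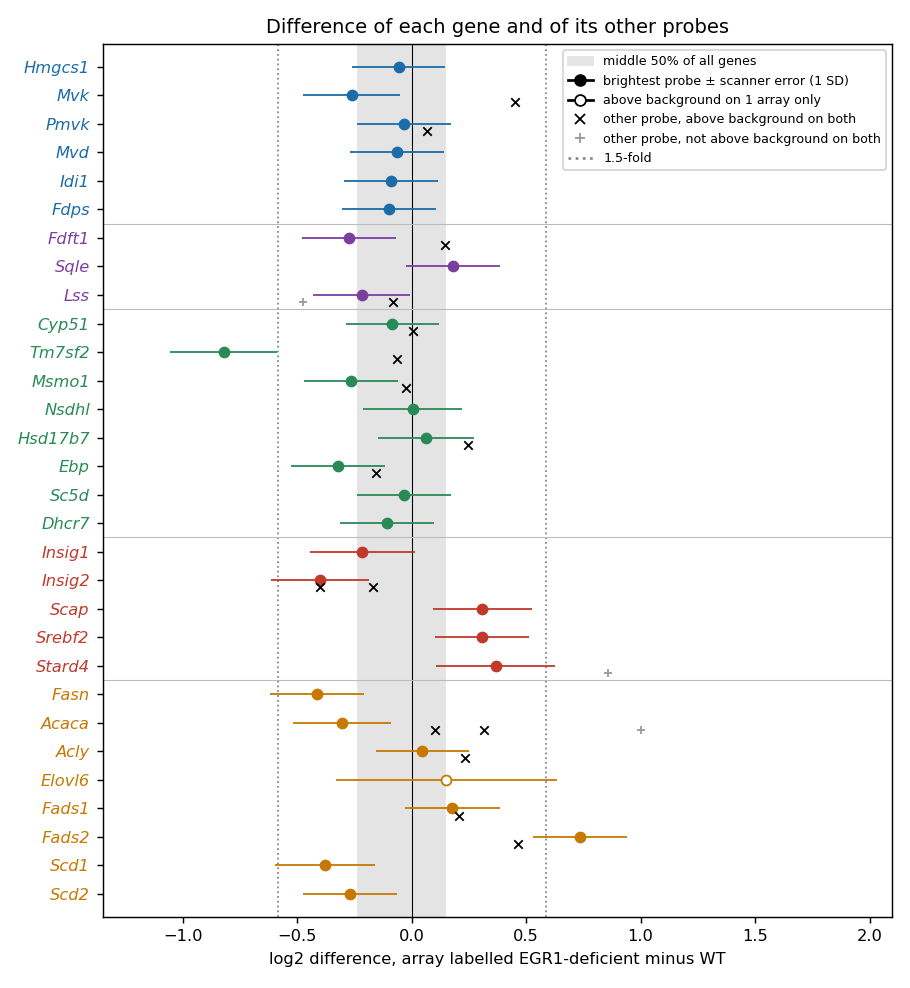
Log2 difference (EGR1-deficient-labelled array minus WT) of each of the 30 genes in its brightest probe, with the scanner error (1 SD) as bars, and in its other probes as crosses. Most points lie in or near the grey band that holds the middle 50% of all genes (−0.23 to 0.15); crosses on the other side of 0 from the circle mark Mvk, Fdft1 and Acaca, among others.

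The regulators fell on both sides of 0, and no common direction was seen for them. Srebf2, which encodes SREBP2, read 433 on the EGR1-deficient-labelled array and 333.8 on WT, a difference of 0.31 ± 0.20 or 1.24-fold. Scap, the escort protein, read 134 and 103 (0.31 ± 0.21). Spots around the Scap probe had a median difference of 0.12, over 50 spots, and those around the Srebf2 probe −0.03, over 62. The part of that area of the array in the Scap value was not tested. Insig1, an anchor that holds SCAP in the endoplasmic reticulum and is itself an SREBP target, read 64.8 and 71.8 (−0.22 ± 0.23). Insig2, the anchor less dependent on SREBP, read 83.5 and 105 (−0.40 ± 0.21), and its other probes differed by −0.17 and −0.40. None reached 1.5-fold, and each lay within 2 scanner errors of 0. Over the alternatives Srebf2 and Scap ranged from 0.19 to 0.42, Insig1 from −0.33 to −0.10 and Insig2 from −0.51 to −0.17. Srebf2, Scap and Insig1 have 1 probe each, so no choice of probe could move them. The gap between Srebf2 and Insig2, which no scaling of whole arrays can change, was 0.71 ± 0.30, and that between Srebf2 and Insig1 0.52 ± 0.31. These pairs were set against each other after their values were seen.

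Stard4, which carries sterol between membranes inside the cell, was the highest of this group, at 47.2 on the EGR1-deficient-labelled array and 34.96 on WT (0.37 ± 0.26). Its dimmer probe was above background on the EGR1-deficient-labelled array only, at 23.4 against 12.3. Srebf1, which encodes SREBP1 and is not on the list, read 250 and 283 (−0.25 ± 0.21).

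Among the fatty acid genes 3 of 7 were above 0 and 4 below, with a median of −0.27. That median turned sign with probes averaged (0.039) and with the probe of second highest signal (0.10), so the group has no settled direction. Fads2 read 673 on the EGR1-deficient-labelled array and 386 on WT (0.73 ± 0.20). Its other probe read 196 and 136 (0.47 ± 0.21). Of all genes, 252 (1.84%) lay as high or higher than the brighter probe. Spots around the 2 probes had medians of −0.07 and −0.08. The difference ranged from 0.47 to 0.85 over the 9 alternatives, and with the dimmer probe alone it did not reach 1.5-fold. Fads1, the partner desaturase of the same pathway, read 212 and 179 (0.18 ± 0.21), with its other probe at 0.21.

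Fasn, Scd1 and Scd2 lay below 0. Fasn, the fatty acid synthase, was the lowest of the group, at 262 on the EGR1-deficient-labelled array and 333.3 on WT (−0.41 ± 0.21). Scd1 and Scd2, the desaturases that make monounsaturated fatty acids, read 85.04 and 106 (−0.38 ± 0.22) and 448 and 516 (−0.27 ± 0.20). These 3 genes have 1 probe each and were below 0 under each of the 5 alternatives that could move them. Scd3, a related desaturase that is not on the list, lay above 0 in both of its probes above background (0.38 and 0.34). Scd4, another such desaturase, lay below 0 in both of its probes (−0.21 and −0.10). The gap between Fads2 and Scd1 was 1.11 ± 0.30, between Fads2 and Fasn 1.15 ± 0.29 and between Fads2 and Fads1 0.56 ± 0.29, again set side by side after the values were seen.

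The enzymes that feed the synthase gave no settled direction. Acly, which makes cytosolic acetyl-CoA from citrate, read 452 on the EGR1-deficient-labelled array and 418 on WT (0.05 ± 0.20), with its other probe at 0.23. Acaca, the acetyl-CoA carboxylase of lipid synthesis, read 110 and 129 (−0.30 ± 0.21), but 2 more probes that passed the background call gave 0.10 and 0.32. Its dimmest probe was above background on the EGR1-deficient-labelled array only, at 14.1 against 6.70. Set against the lowest WT signal well above background, the fold of that probe was 0.82. Elovl6, which lengthens the products of the synthase, was at the edge of detection. It read 18.9 on the EGR1-deficient-labelled array, well above background there, and 16.3 on WT, not well above background. Set against the lowest WT signal well above background, the fold was 1.11. The difference was 0.15 ± 0.48, so its direction is not settled.

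**Figure D4:**
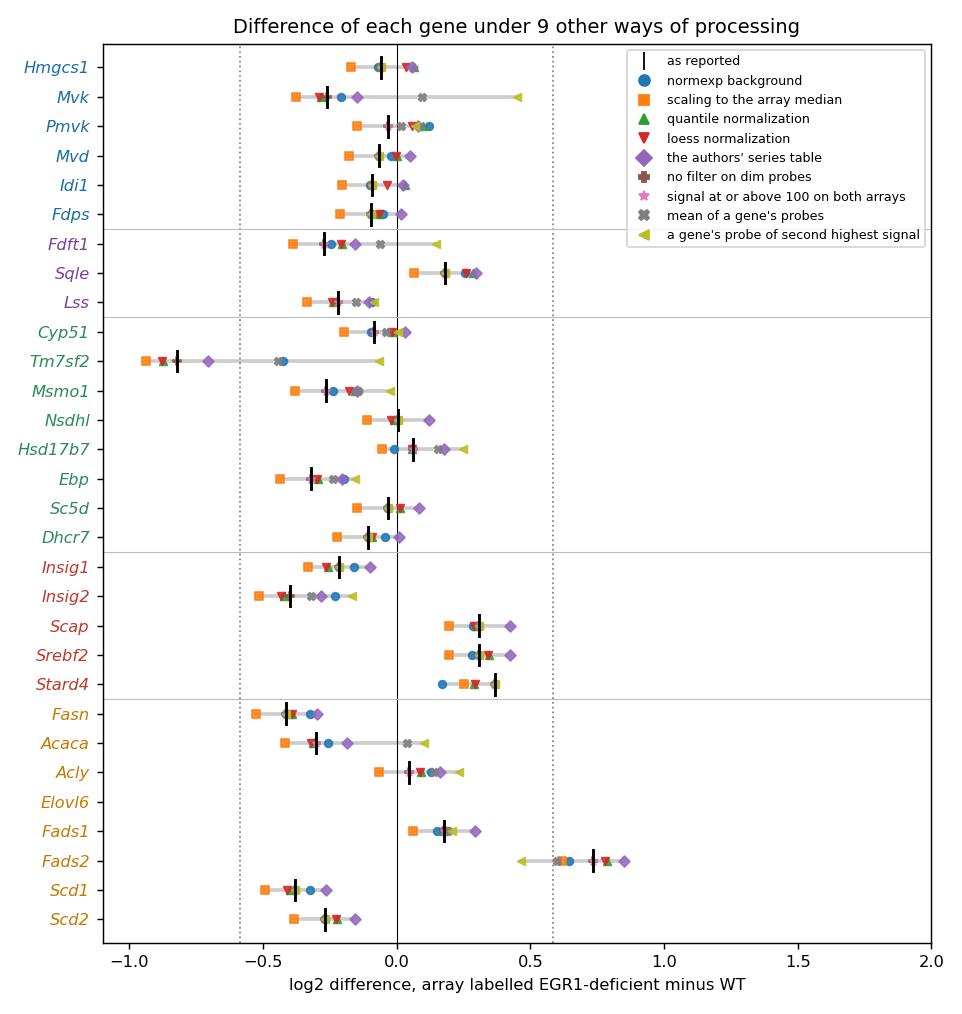
Log2 difference of each gene (EGR1-deficient-labelled array minus WT) as reported (black bar) and under 9 alternative ways of processing (symbols). Fads2 spans 0.47 to 0.85 and Tm7sf2 −0.94 to −0.06, while Srebf2 and Scap stay between 0.19 and 0.42; Elovl6, above background on 1 array only, is not plotted.

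Agreement between probes could be checked for 14 members with more than 1 probe above background on both arrays. In 8 of them the highest and lowest probe, taken as a pair, had an SD no larger than that median of 0.17. As a median, it has about as many genes with 2 probes above it as below. In 5 members the 2 extreme probes had opposite signs: Mvk, Pmvk, Fdft1, Cyp51 and Acaca. The share of all genes with opposite signs was not computed. In 3, Mvk, Tm7sf2 and Acaca, the extreme probes lay 1.5-fold or more apart. Of all genes with 2 probes, 13.9% lay that far apart, 21.4% with the dimmer probe under 100 and 5.49% with both at 100 or more. Acaca and Insig2 entered with the range of 3 probes, which is wider by construction, so these shares are not a like measure for them.

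The neighbouring pathway genes gave a like picture for sterols and fatty acids. Of 23 further sterol genes (uptake, SREBP processing, esterification and turnover), 22 were above background on both arrays, 7 above 0 and 15 below, with a median of −0.06 and none at 1.5-fold. The largest differences were those of Mbtps2 and Mbtps1, the proteases that release SREBP, at −0.47 ± 0.21 and −0.27 ± 0.21, and of Ggps1, the geranylgeranyl diphosphate synthase, at 0.30 ± 0.21. Probes of each gene disagreed in sign. The other Mbtps2 probe gave 0.18, the other Mbtps1 probes −0.28, 0.55 and −0.11, and the other Ggps1 probes above background on both arrays −0.12, 0.13 and 0.10.

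Of 24 further fatty acid genes, 22 were above background on both arrays, 10 above 0 and 12 below, with a median of −0.10 and 1 lower by 1.5-fold. That gene, Acacb, the mitochondrial acetyl-CoA carboxylase, read 28.4 on the EGR1-deficient-labelled array and 104 on WT (−1.94 ± 0.27), but 26.6 and 17.1 in its other probe (0.57 ± 0.38). Acsl3, a fatty acyl-CoA synthetase, differed by 0.54 ± 0.22, and Acss2, which makes acetyl-CoA from acetate, by −0.42 ± 0.21. In the liver X receptor (LXR) pathway, which exports sterol when it is plentiful, 5 of 6 genes were below 0 with a median of −0.42. Abca1, the sterol exporter, read 456 and 811 (−0.90 ± 0.20), and Nr1h3, which encodes LXR alpha, 161 and 257 (−0.74 ± 0.21), with their other probes at −0.44 and −0.60. Lpcat3, a phospholipid-remodelling enzyme, differed by −0.48 ± 0.20 in one probe and by 1.68 ± 0.22 in the other. The macrophage markers were lower on the same array, and their part in these values was not tested.

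**Figure D5:**
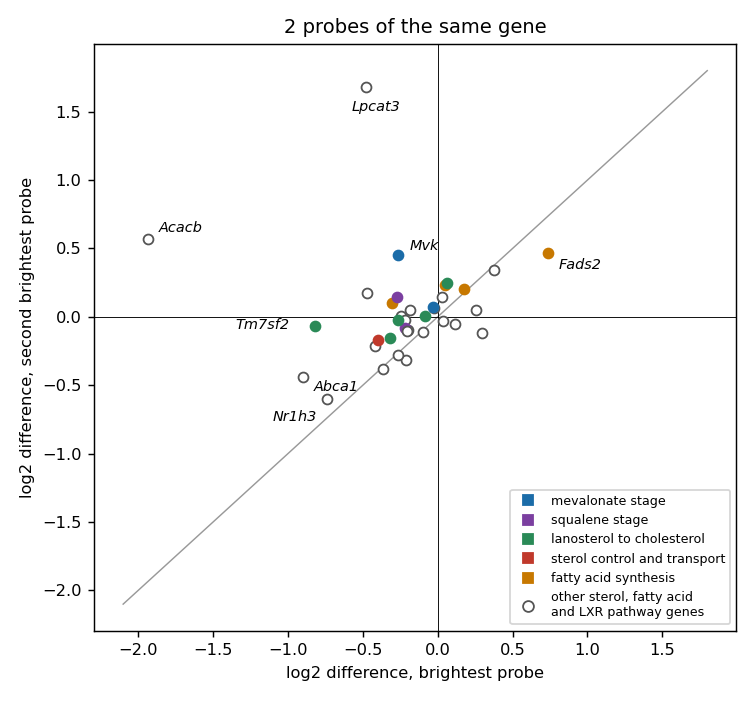
Log2 difference (EGR1-deficient-labelled array minus WT) of the brightest probe of a gene against its second brightest, for genes with at least 2 probes above background on both arrays; filled circles are members by role, open circles other sterol, fatty acid and LXR pathway genes. Fads2 (0.73 and 0.47) lies above 0 in both probes, which are 0.27 log2 units apart. Acacb (−1.94 and 0.57) and Lpcat3 (−0.48 and 1.68) lie far from the line of equality.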

How the data were processed

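RNA of 2 BMDC cultures was read on 1-colour (Cy3) Agilent arrays, 1 per label. The authors deposited spot intensities on a linear scale. Per the file headers they were made with Feature Extraction 12.1.0.3 (the submitters' processing notes name 11.5.1.1), with background subtraction and detrending, on a design of build mm9. Their series table of intensities equals the processed signal times 1 constant per array (6.18 and 5.97), with column medians of 1205 and 1114, the origin of the constants unknown. It lists 29296 spots, fewer than the scanner files.

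Processed signals were divided by the 75th percentile of the 59305 non-control spots of each array (191.6 and 183.0), then taken to log2; outlier spots (77 and 79) were dropped. No spot was saturated. Spots well above background made up 59.8% and 55.2%. RefSeq accessions (GRCm38.p6, for names only) named 34565 of 56603 probes. The members and lists were chosen with earlier results of these data known. Members named in full were those 1.5-fold apart, the extremes of each role, those above background on 1 array only and those whose probes disagreed. Related genes were named where they were Srebf1 or among the 3 largest differences of a list; some genes that this rule names are not reported here. Lbr, Scd3, Scd4 and the gaps between pairs of genes fall outside this rule and were chosen after their values were seen. Where only 1 array is well above background, the fold uses a floor for the other array. The floor is the higher of the dim probe's own signal and that array's lowest signal well above background. Those lowest signals were 13.3 (EGR1-deficient) and 16.3 (WT). Such a fold makes no allowance for scanner error. The number of arrays limits the precision. Alternatives used limma 3.58.1 (normexp, offset 50, on median spot signal, since no mean signal column is used here) and statsmodels 0.14.6 (loess). The counting step was run on simulated data, with a planted change alike in every probe of a gene. That run checks the counting only. It left out the larger disagreement between probes seen here, so it says nothing about the calls of Fads2 and Tm7sf2.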

Additional observations from a re-analysis of the deposited data

How the results depend on the processing

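Over 9 alternatives the median difference of all members ran from −0.21 to 0.02, and its distance from the median of all genes from −0.04 to 0.02. Among single genes, 17 values moved by more than 0.17 log2 units (the median SD of a gene's probes). Many could not move that far: the signal filters leave a kept gene's value as it was, probe choices cannot move a gene with 1 probe, and scaling to the array median or the series table shifts every gene alike. Neither of the 2 genes past 1.5-fold changed sign. The count of members 1.5-fold lower, 1 as reported, was 0 after normexp, 0 with a signal minimum of 100, 0 with probes averaged per gene and 0 with the probe of second highest signal, since Tm7sf2 then fell short (−0.43, left out for dimness, −0.44 and −0.06). The count 1.5-fold higher, 1 as reported, was 0 with the probe of second highest signal (Fads2 at 0.47). The fatty acid median of −0.27 was 0.039 with probes averaged and 0.10 with the second probe, and the squalene median of −0.22 was 0.15 with the second probe. Other stage medians moved less than 0.17. Of all genes, 482 were 1.5-fold higher and 573 lower as reported. The split was 68 and 130 after normexp and 381 and 674 after quantile normalization, each of 13724 genes. With the signal minimum it was 70 and 144 of 8727 genes, and with no filter 2527 and 1932 of 23786. No paired analysis was possible because each label has 1 array, and for the same reason none could be left out. Dim signals limit Tm7sf2, Stard4, Elovl6 and the second probe of Mvk.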
